A study of Oryza sativa with 12 samples.

Results

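The 6 genes described here encode type 2C protein phosphatases (PP2Cs) of the abscisic acid (ABA) pathway in rice. They are OsPP2C06 (LOC4324201, also listed as OsABIL1), OsPP2C08 (LOC4324182), OsPP2C09 (LOC4327465), OsPP2C30 (LOC4332374), OsPP2C51 (LOC4339671) and PP2C68 (LOC4346736, also listed as OsPP108). They were chosen by name, from the symbols and synonyms of the RefSeq gene table, with earlier results of these data known. They make up 6 of the 17905 genes that the array's probe sets could be tied to. OsPP2C51 has 2 probe sets and the other members 1 each, 7 probe sets in all. The arrays measured leaf RNA of field-grown Oryza sativa in 4 groups of 3 biological replicates, with 1 Affymetrix rice array for each of the 12 samples. Bala drought and Azucena drought plants grew flooded until day 59 after sowing and then went 24 days without water, and Bala control and Azucena control plants stayed flooded. All leaves were taken on day 83. A sample was 1 bag per field block, holding the middle parts of young, fully expanded leaves, drawn from 2 plots per block in drought and 1 plot in control, so each array is a pool of leaves.

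ABA accumulates in leaves that lose water. PP2Cs of this clade hold the pathway off: without ABA they bind SnRK2 kinases, called SAPKs in rice, and keep them dephosphorylated. A receptor of the PYL family that has bound ABA docks onto the phosphatase and blocks its active site, which frees the kinases to phosphorylate bZIP transcription factors. Those factors switch on protective genes such as dehydrins, and in many plants also the PP2C genes themselves, a negative feedback. The array measures transcripts and says nothing about phosphatase activity.

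All 6 members rose under drought in both cultivars. In Bala 6 of 6 were called higher, where 27.4% of all 15605 genes tested were, and in Azucena 6 of 6, where 18.2% of genes were. Because the members were chosen with earlier results of these data known, these shares give a setting for the counts, not a test. A gene counts as called when its adjusted p from limma was under 0.05 after Benjamini-Hochberg adjustment. limma fits a linear model to each probe set and draws on all of them to estimate the spread. Changes are log2 differences of signal + 16, a scale that understates the change of dim genes. The median log2 change of the members was 3.35 in Bala, against 0.18 over all genes, and 2.81 in Azucena, against 0.03 over all genes. OsPP2C51 passed the filter on dim signals only through its drought arrays and 1 Azucena control array, so it had to differ. The other 5 lay above the array median on all 12 arrays, and their median was 3.25 in Bala and 2.49 in Azucena. No drought array overlapped a control array of its cultivar in any member, which held in this direction for 34.3% of genes in Bala and 27.3% in Azucena.

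OsPP2C30, a phosphatase that in rice partners the receptor PYL5 and the kinase SAPK2, reached the highest signals of the members' probe sets. In Bala it read 1963.2, 3119.9 and 2491.6 on the drought arrays, against 131.1, 136.8 and 138.8 on the control arrays. In Azucena it read 2582, 2807.6 and 2423.6 in drought, against 170.9, 482.9 and 264.9 in control. The Azucena drought arrays lay inside the wider range of the Bala drought arrays, whereas the Azucena control arrays were spread widely and all lay above the Bala ones. The coefficient of variation was 52.3% in Azucena control and 2.95% in Bala control. The log2 change was 4.04 (SE 0.25, adjusted p = 3e-09) or 16.5-fold in Bala and 3.14 (SE 0.25, adjusted p = 8.3e-08) or 8.81-fold in Azucena. Of all genes tested, 74 changed as much or more in Bala and 122 in Azucena, OsPP2C30 included.

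OsPP2C51, known in rice as a promoter of seed germination, was the member with the lowest control signal. Its brighter probe set read 442.9, 469 and 276.7 on Bala drought arrays, against 2, 1.6 and 0.6 on Bala control arrays. In Azucena it read 269.9, 339.2 and 384.4 in drought, against 7.7, 15 and 1.8 in control. Every control array was below its background, taken as the highest of 33 negative control probe sets, and every drought array was above it. The rise is therefore a bound: at least 25.6-fold in Bala and at least 13.8-fold in Azucena. No p-value is set beside these bounds, since the probe set passed the filter almost only through its drought arrays and had to differ. These bounds are not comparable between cultivars, since the mean background of the control arrays was 15.3 in Bala and 24 in Azucena. The second probe set was dimmer, with 51, 37.8 and 29.7 in Bala drought, against 0.5, 0.5 and 0.4 in Bala control. It read 29.6, 41.7 and 44.6 in Azucena drought, against 3.1, 0.3 and 0.9 in Azucena control. Both probe sets thus showed the same order of groups against background. The bounds of the dimmer one, which passed the filter only through drought arrays, were lower, at least 2.55-fold in Bala and at least 1.61-fold in Azucena.

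PP2C68, which lowers ABA sensitivity when overproduced in Arabidopsis, changed by nearly the same amount in the cultivars. Its signals were 1007.8, 809.2 and 929 in Bala drought, against 61.2, 81.3 and 66.4 in Bala control. In Azucena they were 884.7, 754.4 and 951.5 in drought, against 46.4, 89.6 and 72.2 in control. Drought ranges overlapped between cultivars, and so did control ranges. The log2 change was 3.44 (SE 0.19, adjusted p = 5.4e-10) in Bala and 3.39 (SE 0.19, adjusted p = 9.4e-10) in Azucena. The difference between these changes, 0.05 on the log2 scale, had a 95% interval from -0.51 to 0.61.

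OsPP2C09, a negative regulator of drought tolerance in rice, behaved alike. It read 1240.9, 1338.5 and 1187.4 in Bala drought, against 155.9, 168.7 and 224.2 in Bala control. The Azucena values were 1243.5, 1168.5 and 1047.8 in drought, against 207.8, 196 and 174.4 in control. Cultivars again overlapped within each condition, and the drought arrays were tight, with a coefficient of variation of 6.1% in Bala and 8.56% in Azucena. The log2 change was 2.69 (SE 0.15, adjusted p = 7.7e-10) in Bala and 2.49 (SE 0.15, adjusted p = 3e-09) in Azucena. The interval of the difference ran from -0.24 to 0.65.

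**Figure D1:**
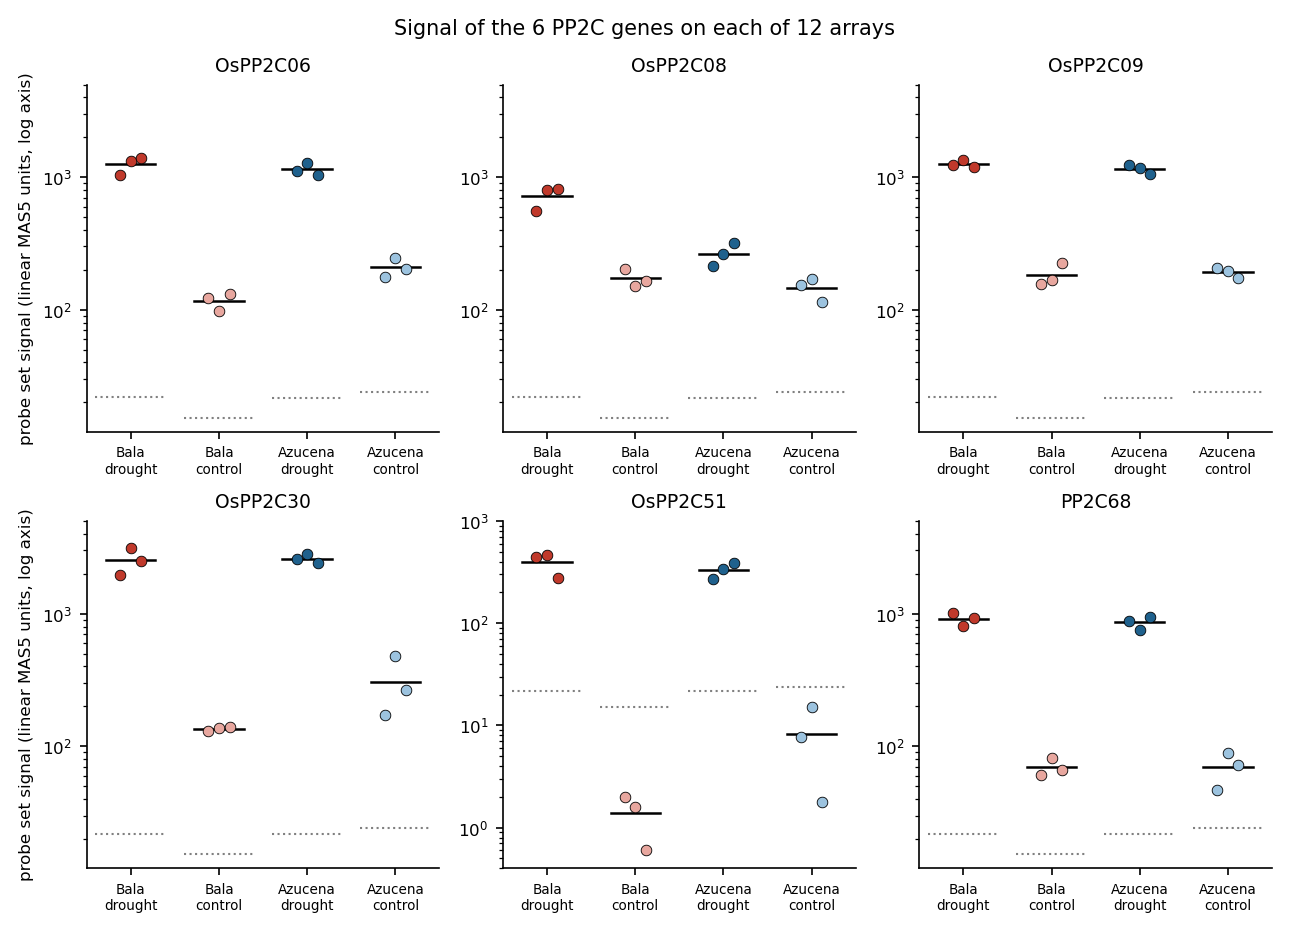
Signal of each PP2C gene (linear MAS5 units, log axis) on the 12 arrays, with 1 point per array, a black line at the group mean and a dotted line at the group's mean background. In every panel the drought points lie above the control points of the same cultivar, and only OsPP2C51 has control points below background.

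OsPP2C06 gave similar drought signals in both cultivars but different control signals. It read 1038.7, 1316.8 and 1400.1 in Bala drought, against 122.8, 97.6 and 131.3 in Bala control. In Azucena it read 1110.8, 1289.7 and 1040.2 in drought, against 177.6, 247.3 and 201.8 in control. All Bala control arrays were below all Azucena control arrays, while the drought arrays overlapped. The log2 change was 3.25 (SE 0.17, adjusted p = 2.9e-10) or 9.5-fold in Bala and 2.38 (SE 0.17, adjusted p = 1.8e-08) or 5.19-fold in Azucena.

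OsPP2C08 changed least in both cultivars and was the member whose drought level set them apart. It read 553.8, 805.5 and 820 in Bala drought, against 202.8, 150.3 and 164.3 in Bala control. In Azucena it read 212.1, 261.9 and 318.9 in drought, against 152.7, 171.2 and 114.8 in control. The control arrays of the cultivars overlapped, and every Bala drought array was above every Azucena drought array. The log2 change was 1.97 (SE 0.2, adjusted p = 9e-07) or 3.91-fold in Bala and 0.79 (SE 0.2, adjusted p = 0.0065) or 1.73-fold in Azucena. In Azucena 1481 of the 15605 genes changed as much or more, a position well below that of the other members, each of which lay above at least 98.6% of genes.

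The measured changes differed among the members. Each of these changes comes from a single probe set, and probe sets of the same gene can differ too. For OsPP2C51 the brighter probe set changed by 4.53 on the log2 scale in Bala and 3.87 in Azucena. The dimmer one changed by 1.74 in Bala and 1.64 in Azucena, and the controls of both were below background. The part of probe sets, and of a scale that understates dim genes, in the differences between members was not tested. The 5 members measured above background on all arrays form 10 pairs, and in each pair the log2 responses were compared by an exact permutation test, two-sided, that exchanged drought and control labels within each cultivar (n = 6 arrays per cultivar, 400 arrangements, smallest possible p = 0.005). This test was added after the values had been seen. After Benjamini-Hochberg adjustment over the 10 pairs, 8 differed. OsPP2C08 rose less than each of the other 4 members (exact permutation test, adjusted p = 0.0083 for each). On the log2 scale, averaged over the cultivars, its response minus theirs was -1.21 for OsPP2C09, -2.21 for OsPP2C30 and -2.04 for PP2C68, and the response of OsPP2C06 minus its own was 1.44. OsPP2C09 rose less than OsPP2C30, with a difference of -1 (exact permutation test, adjusted p = 0.021), and less than PP2C68, with -0.83 (adjusted p = 0.0083). OsPP2C06 rose less than OsPP2C30, with -0.78 (exact permutation test, adjusted p = 0.0083), and less than PP2C68, with -0.61 (adjusted p = 0.031). Against PP2C68 the gap was -0.2 in Bala and -1.01 in Azucena. The pairs OsPP2C06 with OsPP2C09 (difference 0.22, adjusted p = 0.23) and OsPP2C30 with PP2C68 (0.17, adjusted p = 0.48) were not separated by this exact permutation test. Their differences had opposite signs in the cultivars, 0.56 in Bala and -0.11 in Azucena for OsPP2C06 minus OsPP2C09, and 0.6 in Bala and -0.25 in Azucena for OsPP2C30 minus PP2C68.

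The interaction asked whether the drought response differed between cultivars. It was called for 2 of 6 members, both with the larger rise in Bala, where 9.82% of all genes were called in that direction. The response in Bala exceeded that in Azucena by 1.18 for OsPP2C08 (SE 0.28, adjusted p = 0.011) and by 0.87 for OsPP2C06 (SE 0.24, adjusted p = 0.024), against a median of 0.15 over all genes. Relative to that median the differences were 1.03 and 0.72, in the same order of genes. The call for OsPP2C06 was lost under quantile normalization (0.7, adjusted p = 0.071) and without Bala drought 2 or 3, Bala control 2, Azucena drought 3 or Azucena control 2 (0.75 to 0.83, adjusted p = 0.052 to 0.069). For OsPP2C30 the difference was 0.9 (95% interval 0.15 to 1.66, adjusted p = 0.12), and it was called without Azucena control 1 (1.24, adjusted p = 0.012) and stood at 0.53 without Azucena control 2 (adjusted p = 0.27). OsPP2C51 stood at 0.66 (adjusted p = 0.21), a value that depends on the added 16, since its controls were below background.

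**Figure D2:**
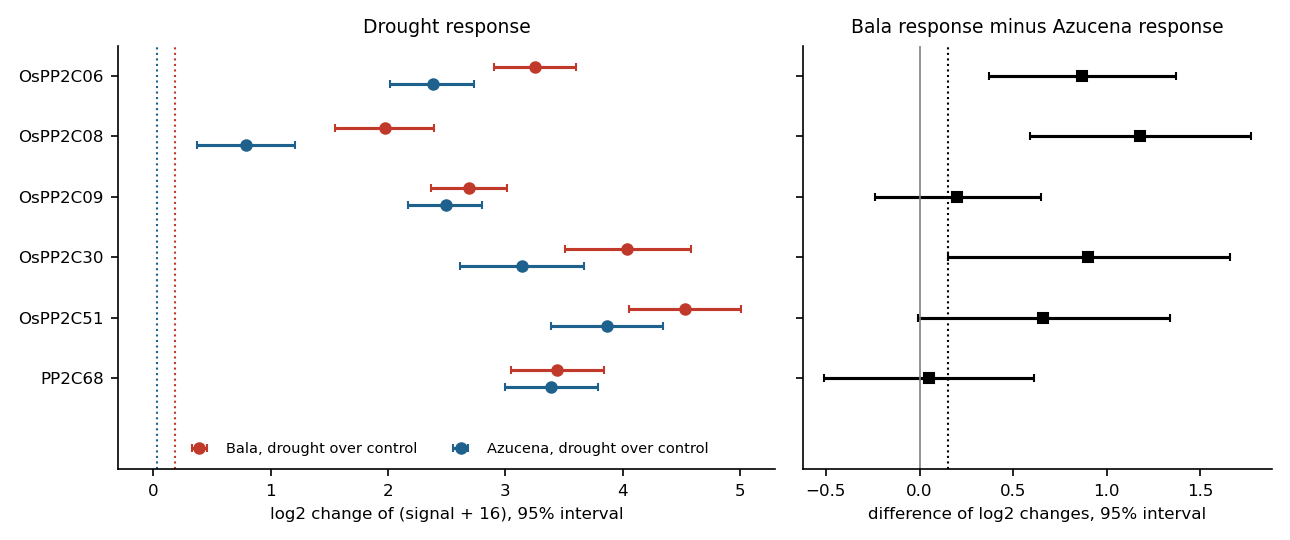
Left, log2 change of signal + 16, drought over control, for each gene in Bala (red) and Azucena (blue), with 95% intervals from limma and dotted lines at the median of all genes. Right, the Bala response minus the Azucena response, with 95% intervals and a dotted line at the median of all genes; the intervals of OsPP2C06 and OsPP2C08 lie farthest from 0.

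The cultivars were also compared within each condition, by the signal of each gene's probe set. Whether the probes match both cultivars equally well was not tested. Among control arrays, Bala was lower than Azucena in OsPP2C06, with a log2 difference of -0.75 (SE 0.17, adjusted p = 0.0023), and in OsPP2C30, with -0.97 (SE 0.25, adjusted p = 0.0075). These were 2 of 6 members, where 22.7% of all genes were called lower in Bala control and the median gene stood at -0.11. In both, the arrays of the cultivars did not overlap, as was so in this direction for 29.5% of genes. Without Azucena control 2 the difference in OsPP2C30 was -0.6 (adjusted p = 0.042), and without Azucena control 1 it was -1.3 (adjusted p = 0.00022). Azucena control 2 was the highest array of its group in 5 of 6 members, and in 52.5% of all genes tested. Bala control 1 was the lowest array of its group in 3 of 6 members, and in 68.7% of all genes. Without it 2730 of 15605 genes were called lower in Bala control, against 3544 with all arrays. The median gene then stood at -0.03, and 2 members were still called lower. OsPP2C08 (0.22, adjusted p = 0.46), OsPP2C09 (-0.08, adjusted p = 0.75) and PP2C68 (0.03, adjusted p = 0.93) were not called in control. OsPP2C51 was below background in both control groups.

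Among drought arrays 1 of 6 members was called, OsPP2C08, higher in Bala by 1.4 (SE 0.2, adjusted p = 4.1e-05) or 2.64-fold, where 12% of all genes were called higher. Its arrays did not overlap between cultivars, as was so in this direction for 23.0% of genes. For the other members the ratio of Bala drought to Azucena drought was 1.09 for OsPP2C06 (95% interval 0.851 to 1.39), 1.09 for OsPP2C09 (0.874 to 1.36), 0.955 for OsPP2C30 (0.66 to 1.38), 1.17 for OsPP2C51 (0.841 to 1.63) and 1.06 for PP2C68 (0.806 to 1.39). The order of levels followed from this. In OsPP2C06 and OsPP2C30 the drought groups did not separate, Azucena control came next and Bala control was lowest. In OsPP2C09 and PP2C68 neither the drought groups nor the control groups separated. In OsPP2C08 Bala drought was highest, Azucena drought followed, and the control groups did not separate.

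A sign of RNA integrity also moved with cultivar and, in Bala, with drought. The ratio of 3′ to 5′ signal of the GAPDH control probe sets was 1.31 to 1.34 in Bala drought, against 1.88 to 2.26 in Bala control, and 5.25 to 6.12 in Azucena drought, against 5.84 to 6.9 in Azucena control, whereas that of actin overlapped (11.2 to 28.6 over all arrays). Its part in the cultivar differences and in the Bala drought response was not tested. In these leaf samples the photosynthesis markers were bright, with a summed signal of 6 genes between 22781.4 and 36948.3 on every array. In each cultivar 4 of the 6 fell, where 14.1% of all genes fell in Bala and 17.4% in Azucena. Of 4 root markers Lsi2 and NAS1 did not pass the filter on dim signals. Lsi1 was above background on all 12 arrays, with a log2 change of 0.32 in Bala (adjusted p = 0.33) and a rise of 0.77 in Azucena (adjusted p = 0.019), and IRT1 fell in both. The summed root signal was 110.5 to 201.8 in Bala drought, against 111 to 187.1 in Bala control, and 304.5 to 321.7 in Azucena drought, against 180.1 to 236 in Azucena control. Of 5 anther and floral markers C6, MADS3 and MADS58 did not pass the filter, MADS4 was not called, and MADS16, above background on all 12 arrays, rose by 0.75 in Bala (adjusted p = 0.0016) and 0.65 in Azucena (adjusted p = 0.0055). Their summed signal was 178.8 to 227.8 in Bala drought, against 107.6 to 122.2 in Bala control, and 184.6 to 220.3 in Azucena drought, against 118.4 to 136.3 in Azucena control. The part of root and floral markers in the members' changes was not tested. Vascular and secondary wall markers rose in 4 of 4 cases in Bala and 0 of 4 in Azucena, where 27.4% and 18.2% of all genes rose. CESA4 and CESA9 had no Bala control array above background, and their rises there were bounds, at least 6.84-fold and 1.65-fold. The brightest of the 4, OsSUT1, averaged 327 in Bala drought against 115 in Bala control, and 308 in Azucena drought against 241 in Azucena control. The summed signal of the 4 was 446.6 to 620.4 in Bala drought, against 114 to 169.9 in Bala control, and 372.6 to 415 in Azucena drought, against 238.5 to 383.7 in Azucena control. Under spike-in scaling 1 of the 4 rose in Azucena. The part of these markers in the larger Bala rises of OsPP2C06 and OsPP2C08 was not tested, and in bulk leaf more cells of a type cannot be told from more RNA per cell.

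The remaining PP2C family on the array moved in both directions. Of 49 other PP2C genes 46 were tested; 8 rose and 10 fell in Bala, where 27.4% of all genes rose and 14.1% fell, and 3 rose and 11 fell in Azucena, where 18.2% rose and 17.4% fell. The split moved with scaling. Under quantile normalization 6 rose and 18 fell in Bala, where 22.7% of all genes rose and 21.3% fell, and 6 rose and 14 fell in Azucena, where 21.0% rose and 21.4% fell. Under spike-in scaling 11 rose and 10 fell in Bala, where 32.9% of all genes rose and 13.4% fell, and 6 rose and 11 fell in Azucena, where 24.1% rose and 15.3% fell. Their median log2 change was -0.07 in Bala and -0.16 in Azucena, and stayed below 0 under all 3 other scalings tried. The 4 with the highest mean level were OsPP2C05, OsPP2C45, OsPP2C70 and OsPP2C28, and within single cultivars only OsPP2C28 of these was called, with -0.46 in Bala (adjusted p = 0.028) and -0.75 in Azucena (adjusted p = 0.0013). Averaged over both cultivars OsPP2C70 was called too, with 0.29 (adjusted p = 0.03). PP2C53 (LOC4339797, also listed as OsABIL2), which is counted among them and is the only other member of the same clade from the listed names that is tied to a probe set here, was not called. Its log2 change was 0.5 in Bala (SE 0.2, adjusted p = 0.073) and 0.21 in Azucena (SE 0.2, adjusted p = 0.51), with 218 ± 32 in Bala drought against 152 ± 43 in Bala control (SD, n = 3 each). OsPP2C49 and OsPP2C50 were not analysed here.

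Outside the 6 members, 2 PP2C genes rose by more than 1 on the log2 scale in both cultivars, named here after their values had been seen. OsPP2C59 (LOC4341949) read 536, 778.2 and 951.7 in Bala drought, against 36.6, 40.6 and 43.2 in Bala control, values sorted within each group. It read 574.7, 608.1 and 779.9 in Azucena drought, against 60.6, 65.7 and 75.2 in Azucena control. This gene lay within the range of the members, with a log2 change of 3.74 (SE 0.19, adjusted p = 2.8e-10) in Bala and 3 (SE 0.19, adjusted p = 5.9e-09) in Azucena. OsPP2C16 changed by 1.47 (adjusted p = 1.3e-05) in Bala and 1.04 (adjusted p = 0.00047) in Azucena. The largest fall was that of OsPP2C78, with -1.75 (adjusted p = 1e-06) in Bala and -2.56 (adjusted p = 1.7e-08) in Azucena.

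**Figure D3:**
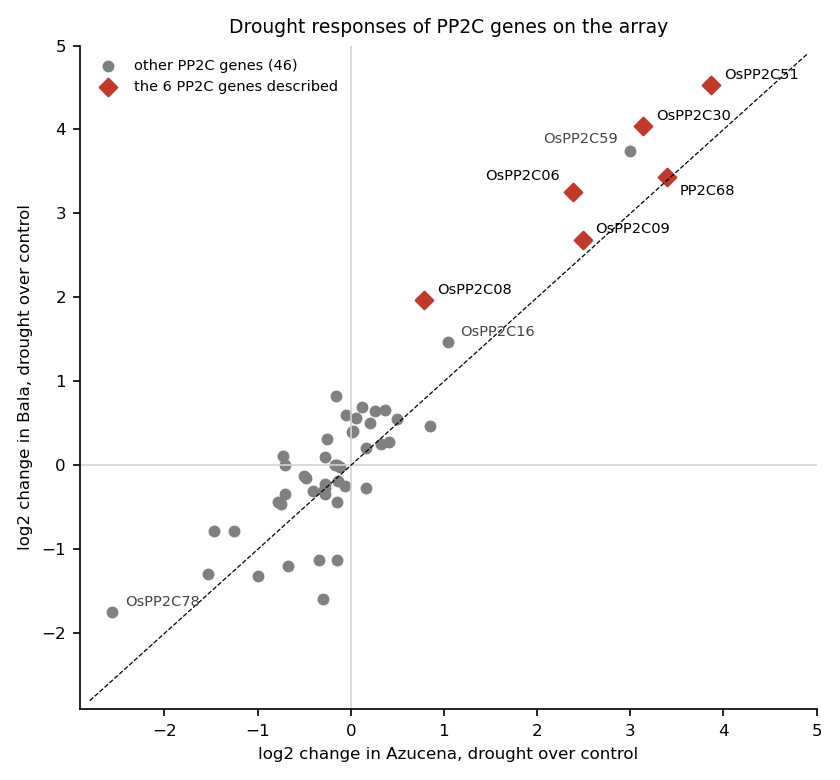
Log2 change, drought over control, in Bala (vertical axis) against Azucena (horizontal axis) for the 6 PP2C genes (red diamonds) and the 46 other PP2C genes tested (grey circles), with equal change along the dashed line. OsPP2C59 (3.74 in Bala, 3 in Azucena) lies among the red diamonds, and most other PP2C genes lie near 0.

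The partners of these phosphatases changed less evenly. OsPYL5 (LOC4338104), the only ABA receptor gene identified, had 1430 ± 130 in Bala drought against 1350 ± 180 in Bala control, and 1480 ± 57 in Azucena drought against 1300 ± 31 in Azucena control (SD, n = 3 each). Its log2 change, 0.09 in Bala (adjusted p = 0.63) and 0.18 in Azucena (adjusted p = 0.32), was not called, and the Bala value was -0.04 under quantile normalization. Among the 10 SAPK kinase genes 5 rose and 2 fell in Bala, where 27.4% of all genes rose and 14.1% fell. In Azucena 6 rose and 1 fell, where 18.2% of all genes rose and 17.4% fell. Their median log2 change was 0.48 in Bala and 0.57 in Azucena. Under quantile normalization or median centring 4 rose in Bala, and under spike-in scaling 7 rose in Azucena. OsSAPK2, the partner of OsPP2C30, fell in both, with 330 ± 41 in Bala drought against 903 ± 72 in Bala control (log2 change -1.41, adjusted p = 6.4e-07). In Azucena it had 423 ± 39 in drought against 1450 ± 96 in control (log2 change -1.74, adjusted p = 7.2e-08; SD, n = 3 each). The kinase gene OsSAPK3 changed by 0.19 in Bala (adjusted p = 0.36) and 0.88 in Azucena (adjusted p = 0.00022), and OsSAPK8 by 0.3 (adjusted p = 0.16) and 0.62 (adjusted p = 0.0071) in the same cultivars. OsSAPK5 fell in Bala, by 0.44 on the log2 scale (adjusted p = 0.025), and stood at -0.13 in Azucena (adjusted p = 0.55). These 4 had the highest mean level of the 10. Of the others, named after their values had been seen, OsSAPK4 rose most, by 2.07 in Bala and 1.77 in Azucena. The largest interaction was that of OsSAPK6, 1.31 (adjusted p = 0.00035), with 1.82 in Bala and 0.51 in Azucena. Interactions were called for 2 kinases toward Bala and 1 toward Azucena, and for 1532 and 801 of all 15605 genes.

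Downstream, both bZIP genes tested rose. BZIP23 (LOC4330838) had a log2 change of 2.06 (SE 0.17) in Bala and 2.47 (SE 0.17) in Azucena, and TRAB1 (LOC4345807) 0.97 (SE 0.21) in Bala and 1.21 (SE 0.21) in Azucena. The seed factor gene OsVP1 did not pass the filter. Of 9 ABA target genes, mostly dehydrins and other late embryogenesis abundant proteins, 7 rose and none fell in Bala, and 8 rose and none fell in Azucena. The shares of all genes that rose were 27.4% in Bala and 18.2% in Azucena. In each cultivar 5 of the 9 had no control array above background, so those that passed the filter through drought arrays had to differ; of the other 4, 2 rose in Bala and 3 in Azucena. With such genes at their lower bound the median log2 change was 5.23 in Bala and 5 in Azucena. LIP9, a dehydrin gene with the highest mean log2 signal of them over the 12 arrays, rose more in Bala (log2 change 3.02) than in Azucena (1.51), with a called interaction of 1.51 (adjusted p = 0.0023). The largest interaction of the list, named after its value was seen, ran the other way: salT had -4.84 (adjusted p = 0.00041), with 0.88 in Bala (adjusted p = 0.22) and a rise of at least 69.7-fold in Azucena. That bound is for the mean log2 signal of drought arrays at 880.7, 887.6 and 5760.5, sorted, so its size rests in part on 1 array. No Azucena control array of salT was above background. RAB16D, also named afterwards, had 2.63 (adjusted p = 0.0016), a value that depends on the added 16 since its controls were below background. The dehydrin genes RAB21, RAB16B and RAB16C rose in both, and their interactions were not called (adjusted p = 0.15, 0.94 and 0.58). For RAB21 and RAB16B the interaction also depends on the added 16, since no Bala control array of either was above background. In ABA synthesis, OsPSY3, a phytoene synthase gene, rose by 2.88 in Bala and 1.3 in Azucena (SE 0.2 each), while ZEP, the zeaxanthin epoxidase gene, stood at 0.18 in Bala (adjusted p = 0.54) and fell by 0.85 in Azucena (adjusted p = 0.0029). Of the ABA 8′-hydroxylase genes of breakdown, ABA8OX2 fell by 0.96 in Bala (adjusted p = 0.0007) and by 0.52 in Azucena (adjusted p = 0.046), the last of which was not called under spike-in scaling, and ABA8OX1 was not called in either (adjusted p = 0.33 in Bala, 0.79 in Azucena).

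**Figure D4:**
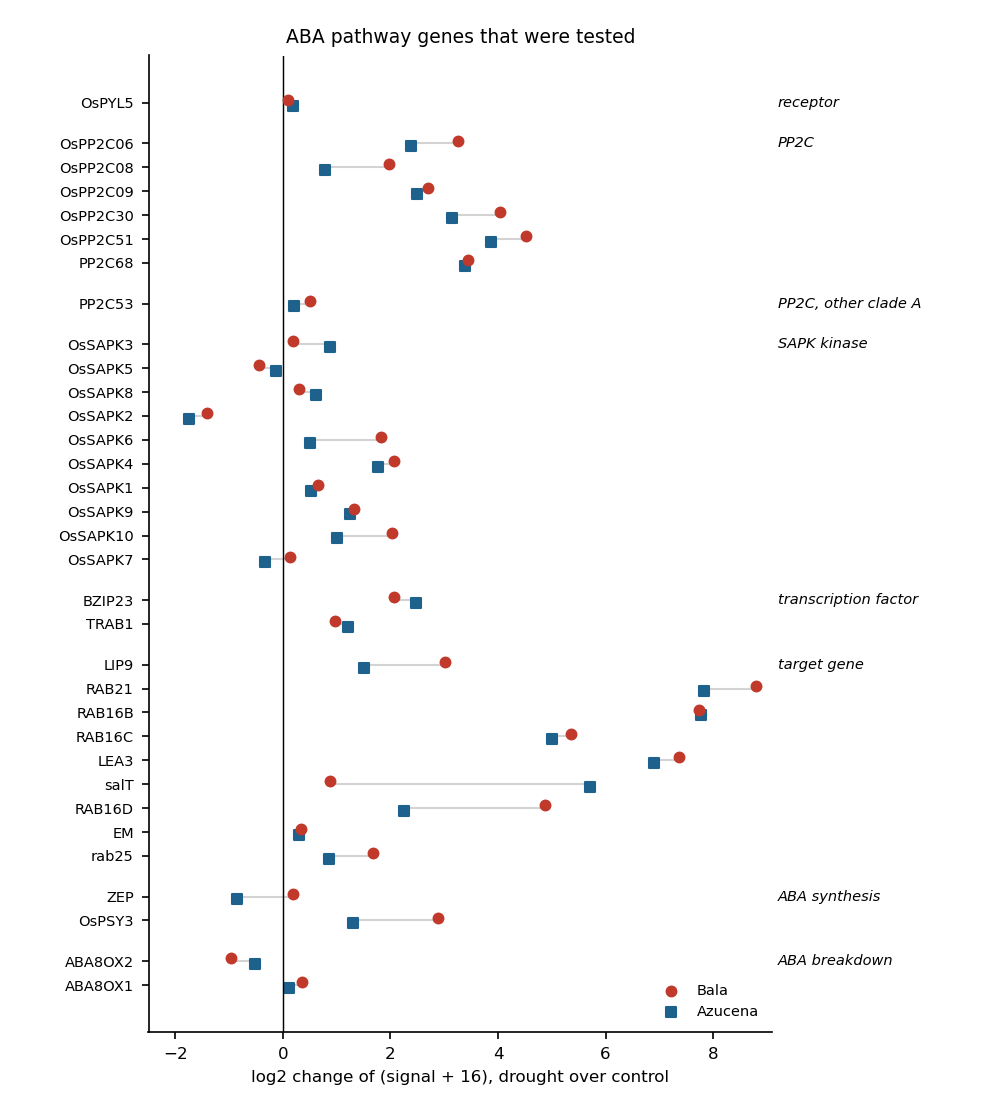
Log2 change of signal + 16, drought over control, in Bala (red circles) and Azucena (blue squares) for ABA pathway genes grouped by role, receptor first. The 6 PP2C genes run from 1.97 to 4.53 in Bala and from 0.79 to 3.87 in Azucena, the OsPYL5 receptor lies near 0, and the kinase genes lie on both sides of 0.

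Likeness of pattern was measured over the 12 arrays as the root mean square difference between log2 values, each gene centred on its own mean. It was computed against 2133 genes with a name. Nearest to OsPP2C06 were KCO2, a potassium channel gene (0.33), the homeobox gene hox29 (0.38) and the FtsH protease gene FTSH6 (0.41). OsPP2C30 was nearest to EGY3 (0.42), hox29 (0.43) and the homeobox gene Hox22 (0.43). OsPP2C06 and OsPP2C30 thus shared hox29, which averaged 249 in Bala drought against 2.07 in Bala control, and 195 in Azucena drought against 16.4 in Azucena control. OsPP2C09 was nearest to HSF01, a heat stress factor gene (0.23), to KCO2 (0.25) and to OsUGE-1 (0.27). OsPP2C51 was nearest to PDHE1-A (0.32), to OsP5CS2, a proline synthesis gene (0.33), and to ELA3 (0.33). PP2C68 was nearest to the CBL-interacting kinase gene CIPK6 (0.32), to ILL8 (0.35) and to OsPP2C59 (0.37). The genes nearest to OsPP2C08 were others, the TCP factor gene PCF5 (0.21), the growth-regulating factor gene GRF8 (0.36) and the kinase gene CIPK18 (0.36). PCF5 averaged 51.4 in Bala drought against 2.73 in Bala control, and 8.63 in Azucena drought against 2.33 in Azucena control, and CIPK18 averaged 295 in Bala drought against 90.9 in Bala control, and 89.1 in Azucena drought against 68.4 in Azucena control. Both were, like OsPP2C08, highest in Bala drought. KCO2, hox29, PCF5, GRF8, HSF01, PDHE1-A, ELA3 and ILL8 each had at least 1 group whose mean was below its mean background, and so did OsPP2C51, so their distances depend on the added 16. Among the members the closest pair was OsPP2C06 and OsPP2C09 (0.32) and the farthest OsPP2C08 and OsPP2C51 (1.51).

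Genes beside the members in the RefSeq annotation were looked at as well. Of the 12 flanking protein-coding genes 7 were on the array, and all 7 passed the filter. None was called higher in either cultivar, where 27.4% of all genes were in Bala and 18.2% in Azucena. With 7 genes this count cannot be set apart from those shares. Only LOC4324180, beside OsPP2C08, was called, with -0.54 in Bala (adjusted p = 0.0085) and -0.62 in Azucena (adjusted p = 0.004). Of all genes 14.1% fell in Bala and 17.4% in Azucena. The neighbours of OsPP2C06, LOC4324200 and LOC4324202, stood between -0.02 and 0.14.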

How the data were processed

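The authors deposited 1 linear signal intensity for each probe set on each array. MAS5 is named in the submitters' processing notes. The labels' protocols give Trizol extraction and biotin-labelled cRNA from 6 µg of total RNA. No source used here gives the scaling target or the detection calls. Array medians were 9.6 to 12.4 and background 13.4 to 28.3, and the number of arrays limits the precision. No sample was left out.

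Signals were used as log2(signal + 16). Probe sets above their array's median on at least 3 of 12 arrays were tested (33476 of 57381, without 123 control probe sets). limma 3.58.1 in R 4.3.3 fitted 1 mean per group over all 12 arrays (lmFit, eBayes with a mean-variance trend). The Benjamini-Hochberg adjustment covered every probe set tested. The script was tested on simulated data. Gene names came from the platform table and RefSeq. A gene with several probe sets is represented by the one with the highest mean, which gave 15605 genes tested. Bounds set the bright group's mean log2 signal against that of the dim group, raised on each array to background. The labels call the replicates biological. No label ties replicate numbers to blocks, so no block was used. The deviations of same-numbered arrays correlated over 0.1 in 2 of 18 pairs. Both set Bala drought against Azucena drought, replicate 1 (0.167) and replicate 3 (0.218), and the crossed pairs of these replicates stood at -0.196 and -0.187. With a replicate block the number of members called higher in Bala drought than in Azucena drought was again 1. Of all 15605 genes 1946 were called so with the block.

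The members and lists were chosen with earlier results of these data known. Named genes are all members, up to 4 per list by mean level and the 3 genes nearest to each member. Names that matched several genes were left out of lists. Alternatives covered pseudocount, scaling, filter, moderation, a replicate block, the arrays in the fit, the second probe set and each array left out.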

Additional observations from a re-analysis of the deposited data

Results flagged for a closer look

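The drought response differed between cultivars, by the interaction term in limma, for 2 of the 6 genes. Both had the larger rise in Bala, where 9.82% of all genes were called in that direction. The Bala response exceeded the Azucena response by 1.18 on the log2 scale for OsPP2C08 (95% interval 0.59 to 1.77, adjusted p = 0.011). For OsPP2C06 it did so by 0.87 (95% interval 0.37 to 1.37, adjusted p = 0.024), a call that was lost without 5 of the 12 arrays, each left out on its own. In OsPP2C08 the control groups averaged 172 ± 27 in Bala and 146 ± 29 in Azucena and the drought groups 726 ± 150 in Bala and 264 ± 53 in Azucena. In OsPP2C06 the control groups averaged 117 ± 18 in Bala and 209 ± 35 in Azucena and the drought groups 1250 ± 190 in Bala and 1150 ± 130 in Azucena (SD, n = 3 each).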

How the results depend on the processing

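The counts of members called higher or lower in the 6 contrasts kept their value or stayed within 1.5 times it in 254 of 260 recomputed counts over 23 settings. The other 6 concerned the interaction, where 2 members were called. Under quantile normalization 1 was called, and with single arrays left out the count ran from 1 to 3. As deposited the median probe set changed by 0.133 on the log2 scale in Bala, against 0.019 under quantile normalization and 0.181 under spike-in scaling. Of 786 recomputed values for single members, 778 kept their direction and side of the threshold. The 8 others were the OsPP2C06 interaction in 6 settings, the OsPP2C30 interaction without Azucena control 1, and OsPP2C51 in Bala control against Azucena control under log2(signal + 1), with -1.65 (adjusted p = 0.017), where all arrays were below background. With the replicate block, 6 of 6 members were called higher in both cultivars, OsPP2C51, which had to differ, included. So were 4393 of all 15605 genes in Bala and 2917 in Azucena. The interaction toward Bala was then called for 2 members and for 1700 of all genes. The OsPP2C08 interaction ranged from 1.01 to 1.36 (adjusted p = 0.0057 to 0.04). The cause of the lost calls was not tested. Values near background have no order.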
